A study of Mus musculus with 12 samples.

Results

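The Obox genes of the mouse encode homeobox transcription factors, and 5 of them, Obox1, Obox2, Obox3, Obox5 and Obox6, were measured among 22619 gene symbols. The members are the genes listed under these names. The data were 12 libraries of polyadenylated RNA, made by Smart-seq2, which copies whole transcripts from minute samples. They came from embryos and from embryonic stem (ES) cells. All embryos were of the C57BL/6 strain: Dcaf11 knockout embryos with the word arrest in their titles (KO arrest, n = 3), other Dcaf11 knockout embryos (KO embryo, n = 3) and wild-type embryos (control embryo, n = 2). ES cells, 129Sv by strain, had Dcaf11 knocked down (KD ESC, n = 2) or were wild type (control ESC, n = 2). The DCAF11 protein selects targets for the ubiquitin ligase built on CUL4 and DDB1. Embryo stage, sex, cell number per library and the way Dcaf11 was removed or knocked down are absent from the labels, and the series title speaks of single cell RNA-seq. The labels do not say whether libraries of 1 group had separate sources, and a p-value here reflects the spread between libraries alone, which may be technical.

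OBOX proteins have a paired-like homeodomain and come from a gene cluster that expanded in rodents. In the mouse, Obox1, Obox2 and Obox5 are known as maternal genes, transcribed in the oocyte and inherited by the zygote as mRNA, while Obox3 is known to be switched on in the early embryo. Together the OBOX factors act redundantly in zygotic genome activation, the start of transcription from the embryo's own genome. Obox6 is known from cleavage-stage embryos, mouse embryos develop without it, and its product can aid the reprogramming of mouse fibroblasts to pluripotency. Obox4, Obox7 and Obox8 are not among the gene symbols measured, so they could not be analysed here.

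In the deposited files all 5 members lie on chromosome 7 of build mm9, within 450829 bases. Their order along the chromosome is Obox2 (chr7:15974200-15983892, plus strand), Obox1 (chr7:16132606-16142195, plus), Obox3 (chr7:16210655-16225126, minus), Obox5 (chr7:16335719-16344623, plus) and Obox6 (chr7:16418599-16425028, minus). A second Obox2 entry on an unplaced part of chromosome 7 was listed at 0 in all libraries. RefSeq promoter sequences, on build GRCm38.p6, matched 4 of the 5 members. The 250 bases before the annotated start are shown for these 4, because the maternal members carry nearly the same promoter. Capitals mark a run of 42 bases found in Obox1, Obox2 and Obox5, and the letters TATATAA, which resemble a TATA box. The windows are chr7:15547007-15547256 for Obox1, chr7:15388601-15388850 for Obox2 and chr7:15750120-15750369 for Obox5, all on the plus strand, and chr7:15639778-15640027 on the minus strand for Obox3.
Obox1: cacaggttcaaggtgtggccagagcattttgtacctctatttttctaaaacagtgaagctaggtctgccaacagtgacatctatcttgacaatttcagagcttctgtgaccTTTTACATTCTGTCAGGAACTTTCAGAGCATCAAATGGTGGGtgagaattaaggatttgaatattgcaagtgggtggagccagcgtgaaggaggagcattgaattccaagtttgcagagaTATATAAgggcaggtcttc
Obox2: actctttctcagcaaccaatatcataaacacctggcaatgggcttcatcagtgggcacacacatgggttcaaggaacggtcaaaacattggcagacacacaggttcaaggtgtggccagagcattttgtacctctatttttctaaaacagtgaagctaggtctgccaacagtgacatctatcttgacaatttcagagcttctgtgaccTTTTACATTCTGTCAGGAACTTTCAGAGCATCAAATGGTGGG
Obox5: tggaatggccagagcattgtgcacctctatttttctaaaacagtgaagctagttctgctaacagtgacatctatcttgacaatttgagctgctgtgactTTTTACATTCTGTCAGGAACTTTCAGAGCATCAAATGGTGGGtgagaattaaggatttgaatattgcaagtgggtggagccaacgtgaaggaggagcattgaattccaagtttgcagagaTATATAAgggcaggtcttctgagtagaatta
Obox3: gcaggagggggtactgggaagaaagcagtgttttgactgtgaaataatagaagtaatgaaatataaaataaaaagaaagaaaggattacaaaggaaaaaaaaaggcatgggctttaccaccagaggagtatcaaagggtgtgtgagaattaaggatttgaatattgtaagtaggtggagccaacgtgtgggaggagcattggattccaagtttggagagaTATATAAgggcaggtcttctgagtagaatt

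The shared run began 139 bases before the annotated start in Obox1, 42 bases before it in Obox2 and 151 bases before it in Obox5. Over the RefSeq window of 250 bases before to 50 after the start, Obox1 matched Obox2 at 100% of 203 aligned bases and Obox5 at 95.5% of 288, but Obox3 at 74.7% of 281. A run of 25 bases was common to Obox1, Obox3 and Obox5. The motifs were searched in this window of all 32851 RefSeq promoters. TATATAA on the gene's strand occurred in 3 of the 4 Obox promoters (Obox1, Obox3 and Obox5) and in 2.20% of all promoters. In Obox2 the annotated start lies nearer the shared run, and the place matching the TATATAA of Obox1 would fall beyond the window. GGATTA, the core letters of bicoid-type homeodomain sites, occurred on either strand in Obox3 alone among the 4 and in 7.06% of all promoters. TAATTG, another homeodomain core, occurred in 0 of the 4 and in 8.0% of all promoters. CANNTG, the E-box letters, occurred in 3 of the 4 and in 72.3% of all, and CCAAT in 2 of the 4 and in 37.4% of all. These are matches of letters in windows that partly repeat each other, not tested sites.

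The members also share transcript sequence, which limits how far their values can be separated. In GENCODE M21 transcripts on build GRCm38, the coding sequence of Obox1 was 98.5% identical to that of Obox2, 95.6% to Obox5, 94.0% to Obox3 and 77.9% to Obox6. Of the 50-base windows of the Obox1 transcript, 58.0% were found unchanged in Obox2, and of those of Obox2, 60.1% were found in Obox1. Obox5 shared 13.0% of its windows with any other gene, and 8.70% with Obox7, which has no value of its own here. The coding sequence of Obox7 was 96.0% identical to that of Obox5 and 93.8% to that of Obox1. Obox3 shared 34.4%, of which nearly all lay in Obox pseudogenes (33.3%). Obox6 shared 5.02%, in pseudogenes only, and none with another member. The sources used here do not give how reads matching more than 1 copy were counted. The values of Obox1 and Obox2 are therefore uncertain as separate values, while their sum with Obox5 is less affected, and Obox6 stands alone in sequence.

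**Figure D1:**
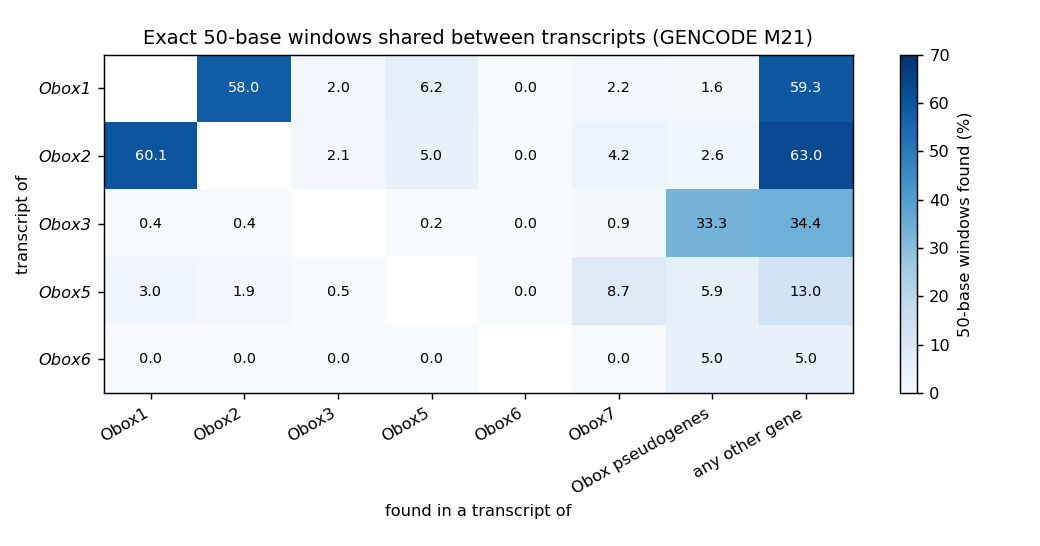
Share (%) of the 50-base windows of each Obox transcript (rows) that occur unchanged in a transcript of the gene in the column, GENCODE M21. Obox1 and Obox2 hold about 58.0% and 60.1% of each other's windows, and Obox6 shares none with the other members.

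Values are FPKM, the authors' read count per gene length and library size, without the counts. Coverage per FPKM, which is proportional to depth, was 0.373 to 0.659 in KO arrest libraries, 0.585 to 1.32 in KO embryo libraries and 1.22 to 2.01 in control embryo libraries. Across genes, r between the control embryo libraries was 0.812, and between libraries of 1 group elsewhere 0.915 to 0.981. Control embryo 1 listed 6573 genes at 1 FPKM or more and gave Wtap alone 24385 FPKM. Dcaf11 itself was 4.43, 0.422 and 6.02 FPKM in KO arrest, 3.99, 2.84 and 0.184 in KO embryos, and 2.82 and 14.3 in control embryos, and these overlapping values do not check the embryo labels. It was 1.69 and 1.83 FPKM in KD ESC, against 6.48 and 4.52 in control ESC (adjusted p = 0.0521, limma). Summed ES cell identity markers were 3.90 to 47.7 FPKM in embryo libraries and 1424 to 1774 in ES cells. Blood cell markers (12 symbols) summed to 2.12 to 10.9 FPKM in KO arrest, 248 to 390 in KO embryos and 83.2 to 209 in control embryos, with S100a9 listed at 0 in KO arrest. Fibroblast markers (10 symbols) summed to 1.22 to 4.78, 66.7 to 103 and 18.8 to 72.3 FPKM in the same groups, and Col1a2 was listed at 0 in KO arrest. Cumulus and granulosa markers (14 symbols) summed to 5.28 to 8.57, 7.12 to 16.6 and 22.7 to 26.6 FPKM, with Fshr listed at 0 throughout. These markers moved with the groups, and their part in the Obox results was not tested.

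In wild-type embryos the Obox signal came from Obox5, Obox1 and Obox2, in that order in both libraries. Obox5 averaged 813 ± 624 FPKM, Obox1 366 ± 69.6, Obox2 277 ± 119, Obox6 72.0 ± 51.4 and Obox3 47.9 ± 0.380 (SD, n = 2). Of the neighbours in this order, Obox2 and Obox6 did not overlap, while Obox5 and Obox1, Obox1 and Obox2, and Obox6 and Obox3 did. Obox5 was the 97th and 27th most abundant gene of control embryos 1 and 2. In KO embryos the order was Obox6, Obox5, Obox1, Obox2 and Obox3 in all 3 libraries, with no overlap between neighbours. In KO arrest libraries Obox6 was again the highest in all 3, at rank 48, 39 and 25 of all genes, and the order of the others changed from library to library. In ES cells Obox1, Obox2, Obox3 and Obox5 were listed at 0 in all 4 libraries, and Obox6 was at 1.07 to 3.72 FPKM.

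**Figure D2:**
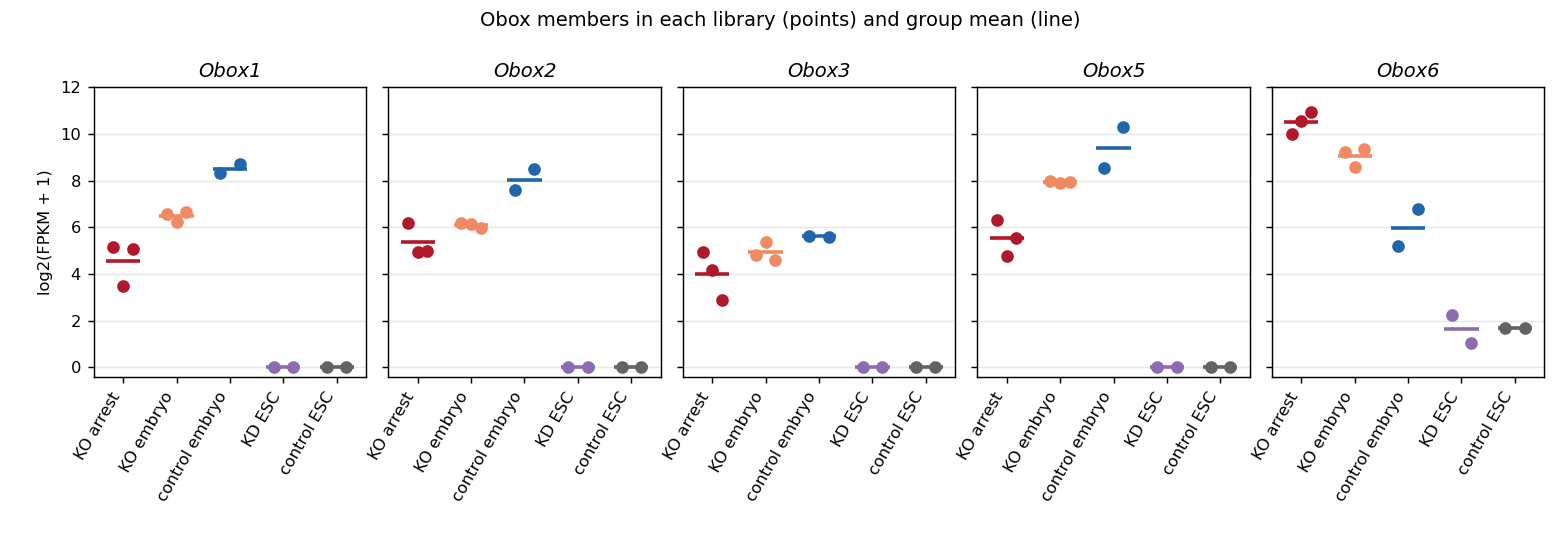
log2(FPKM + 1) of each Obox member in each library (points) with the group mean (line), by group. The means of Obox1, Obox2 and Obox5 are lowest among embryos in KO arrest and highest in control embryos, Obox6 runs the other way, and the ES cell libraries lie at 0 for all members but Obox6.

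Of the maternal members, Obox1 was lower in both knockout groups than in wild-type embryos. It was 35.2, 10.1 and 32.7 FPKM in KO arrest, 95.4, 74.5 and 99.4 FPKM in KO embryos, and 317 and 415 FPKM in control embryos. The 3 groups did not overlap: every KO arrest library was below every KO embryo library, and every KO embryo library below both controls. Differences were tested by limma on log2(FPKM + 1), over the 11795 genes that reached 1 FPKM in 2 or more embryo libraries, with a Benjamini-Hochberg adjusted p under 0.05 as the call. For Obox1 the log2 fold change against control embryos was -2.01 ± 0.53 (SE) for KO embryos (adjusted p = 0.0486) and -3.93 ± 0.53 for KO arrest (adjusted p = 0.000752). It was -1.92 ± 0.47 in KO arrest against KO embryos (adjusted p = 0.0318). In mean FPKM this was 14.1-fold lower in KO arrest than in control embryos. Where a library holds RNA of several cells, fewer cells that hold a transcript and less of it per cell cannot be told apart.

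Obox2, which shares most with Obox1, gave 71.3, 29.9 and 31.0 FPKM in KO arrest, 70.9, 69.4 and 62.1 FPKM in KO embryos, and 193 and 361 FPKM in control embryos. Both knockout groups lay below both controls, but KO arrest 1 was above the KO embryos. Against control embryos its log2 fold change was -1.96 ± 0.48 for KO embryos (adjusted p = 0.0395) and -2.68 ± 0.48 for KO arrest (adjusted p = 0.00318). With KO arrest set against KO embryos it was -0.72 ± 0.43, which missed the threshold (adjusted p = 0.314).

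Obox5 was 77.9, 26.5 and 45.5 FPKM in KO arrest, 252, 239 and 247 FPKM in KO embryos, and 371 and 1254 FPKM in control embryos. The 3 groups did not overlap, and control embryo 2 stood far above control embryo 1. A log2 fold change of -1.47 ± 0.56 in KO embryos against control embryos missed the threshold (adjusted p = 0.147). In KO arrest Obox5 was lower than in control embryos by a log2 fold change of -3.88 ± 0.56 (adjusted p = 0.00110) and lower than in KO embryos by -2.41 ± 0.50 (adjusted p = 0.0184).

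The sum of Obox1, Obox2 and Obox5, which depends less on how reads were split among them, was 184, 66.5 and 109 FPKM in KO arrest, 418, 383 and 408 FPKM in KO embryos, and 881 and 2030 FPKM in control embryos. Its mean was 12.1-fold lower in KO arrest and 3.61-fold lower in KO embryos than in control embryos, and 7.34-fold and 2.19-fold lower without control embryo 2. Obox5 over Obox1 was 1.39 to 2.63 in KO arrest, 2.48 to 3.21 in KO embryos and 1.17 to 3.02 in control embryos. Obox2 over Obox1 was 0.947 to 2.96 in KO arrest, 0.625 to 0.931 in KO embryos and 0.610 to 0.870 in control embryos. KO arrest 3 lay just above the KO embryos in this second ratio, and the other KO arrest libraries well above them.

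Obox3, known to be switched on in the early embryo, passed the test in none of the 3 comparisons with FPKM as deposited. It was 29.4, 17.3 and 6.35 FPKM in KO arrest, 27.2, 39.9 and 23.5 FPKM in KO embryos, and 48.1 and 47.6 FPKM in control embryos. The knockout libraries all lay below the controls and overlapped with each other. Against control embryos, its log2 fold change was -0.68 ± 0.60 in KO embryos (adjusted p = 0.550) and -1.61 ± 0.60 in KO arrest (adjusted p = 0.0711). It was -0.93 ± 0.53 between KO arrest and KO embryos (adjusted p = 0.297).

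Obox6 moved the opposite way. It was 1030.2, 1523 and 1966 FPKM in KO arrest, 605, 382 and 658 FPKM in KO embryos, and 35.6 and 108 FPKM in control embryos. The groups did not overlap: KO arrest was highest and the controls were lowest. Against control embryos, Obox6 changed by a log2 fold change of 3.08 ± 0.50 in KO embryos (adjusted p = 0.0108) and 4.53 ± 0.50 in KO arrest (adjusted p = 0.000344). In mean FPKM Obox6 was 7.62-fold higher in KO embryos and 20.9-fold higher in KO arrest. These folds rest on control libraries that differ: they were 15.4 and 42.3 without control embryo 2, and 5.06 and 13.9 without control embryo 1. Between KO arrest and KO embryos the log2 fold change of 1.45 ± 0.44 missed the threshold (adjusted p = 0.0710), although the libraries did not overlap. It passed in a fit of these 2 groups alone (adjusted p = 0.0165, over all alternatives 0.0108 to 0.219).

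**Figure D3:**
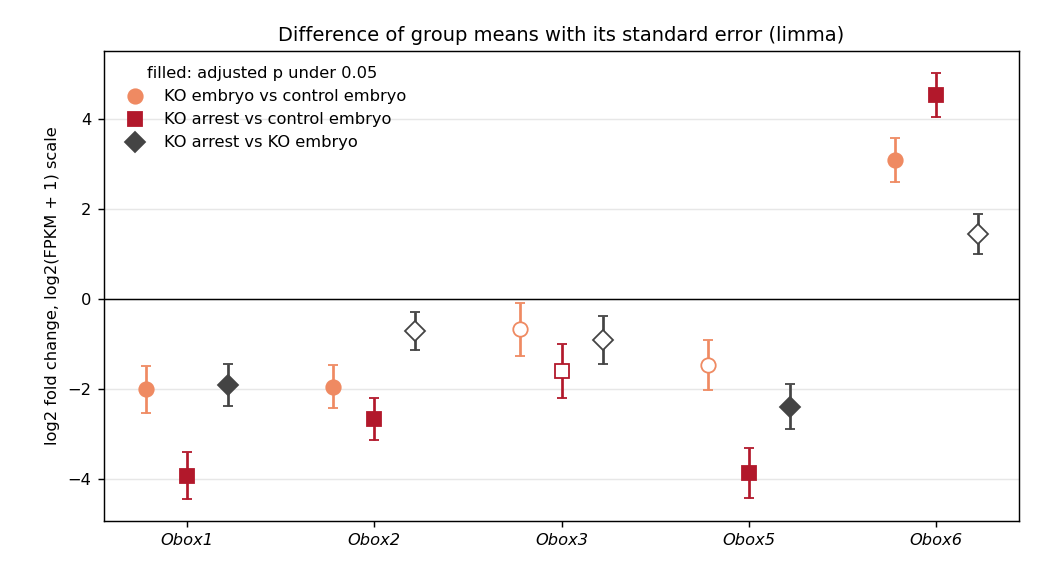
Differences in mean log2(FPKM + 1), as log2 fold changes, with their standard errors, for each Obox member in the 3 embryo comparisons; filled symbols have an adjusted p under 0.05. Obox6 lies above 0 and the other 4 members below 0 in every comparison, and the KO arrest against control values lie farthest from 0 for all 5.

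In all, 3 of the 5 members were called in KO embryos against control embryos, 2 lower and 1 higher, where 6.36% of the 11795 genes tested were called (1.5% lower, 4.86% higher). Against the same controls, 4 of 5 were called in KO arrest, 3 lower and 1 higher, where 25.2% of genes were called (8.87% lower, 16.4% higher). Between KO arrest and KO embryos 2 of 5 were called, both lower, where 8.58% of genes were called (3.65% lower, 4.93% higher). All 5 members had libraries that did not overlap between KO embryos and control embryos, as did 36.3% of genes, and all 5 between KO arrest and control embryos, as did 48.8% of genes. The same held between KO arrest and KO embryos for Obox1, Obox5 and Obox6, and for 37.1% of genes. The median log2 fold change over all tested genes was 0.31, 0.45 and 0.07 in these comparisons, in the same order. Median-of-ratios scaling moved the first 2 of these medians by -0.36 and -0.42, and made 35.8% and 45.2% of called genes higher, against 76.4% and 64.9% with FPKM as deposited. TPM scaling moved the median of KO arrest against KO embryos by -0.35 and made 29.0% of called genes higher, against 57.4%. No alternative turned the direction of a member in the 3 embryo comparisons. The 3 comparisons share libraries and are not independent of each other.

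The calls of Obox1 and Obox2 in KO embryos lay close to the threshold. Both were lost without KO arrest 3, any 1 of the 3 KO embryo libraries or control embryo 2. Obox1 was also lost without KO arrest 1 or control embryo 1, and Obox2 without KO arrest 2. Over all alternatives the adjusted p ran from 0.0169 to 0.254 for Obox1 and from 0.0135 to 0.143 for Obox2. Obox6 was lost in KO embryos without KO embryo 1 or KO embryo 3 (adjusted p 0.0569 and 0.0559) and with the replicate block (0.0506). Its log2 fold change ran from 2.29 to 3.87 over all alternatives. Obox5 in KO embryos passed with median-of-ratios scaling (adjusted p = 0.0290, log2 fold change -2.16). Over all alternatives its log2 fold change ran from -2.34, without control embryo 1, to -0.59. The 4 calls in KO arrest against control embryos held under every alternative, with adjusted p up to 0.0170. In this comparison Obox3 passed with TPM (adjusted p = 0.0447), median-of-ratios (0.0184) or quantile scaling (0.0259). It also passed with all 12 libraries in the fit (0.0463) and without KO arrest 1 (0.0322, over all alternatives 0.0184 to 0.209). The calls of Obox1 and Obox5 in KO arrest against KO embryos were lost without any 1 of KO arrest 2, KO arrest 3 or the 3 KO embryo libraries (adjusted p up to 0.103 and 0.0720 over all alternatives).

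The make-up of the family differed between the embryo groups. The summed FPKM of the 5 members was 1244, 1607 and 2082 in KO arrest, 1051, 805 and 1090.1 in KO embryos, and 965 and 2186 in control embryos. The range of the sum in control embryos held all KO arrest libraries and only part of the KO embryo libraries, and KO arrest lay above KO embryos. Obox6 made up 82.8%, 94.8% and 94.5% of that sum in KO arrest, 57.6%, 47.4% and 60.4% in KO embryos, and 3.69% and 4.95% in control embryos. The ratio of Obox6 to the summed Obox1, Obox2 and Obox5 within a library does not depend on scaling. It was 5.59, 22.9 and 18.0 in KO arrest, 1.45, 0.997 and 1.61 in KO embryos, and 0.0404 and 0.0534 in control embryos. The 3 groups did not overlap, and KO arrest 1 was the lowest of its group.

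**Figure D4:**
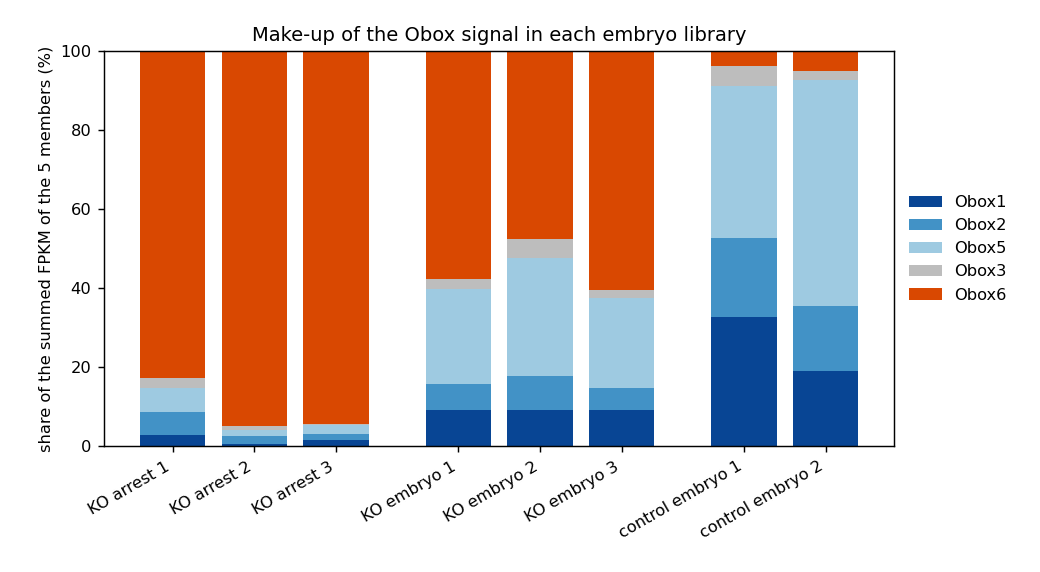
Share (%) of the summed FPKM of the 5 Obox members that each member contributes, for each embryo library. Obox6 contributes 82.8% to 94.8% in KO arrest, 47.4% to 60.4% in KO embryos and 3.69% to 4.95% in control embryos, where Obox5, Obox1 and Obox2 dominate.

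In ES cells Obox6 was the one member that could be tested. It was 3.72 and 1.07 FPKM in KD ESC, against 2.21 and 2.18 FPKM in control ESC, and the 2 KD libraries lay on either side of the controls. Its log2 fold change was -0.03 ± 0.44 (SE; adjusted p = 0.967), where 6.23% of 12264 genes were called (2.59% higher, 3.64% lower) and 62.5% had libraries that did not overlap. The other 4 members were listed at 0 and were not tested. All 5 members were higher in control embryos than in control ESC, where 53.4% of 14447 genes were called (12.6% higher, 40.8% lower), and the libraries of all 5 did not overlap, which held for 74.4% of genes. Obox6 was higher by a log2 fold change of 4.31 ± 0.57 (adjusted p = 0.000175). The other 4, listed at 0 in ES cells, passed the filter only through embryos, where they are high. Their calls were fixed beforehand, so no p-values are given. Embryos and ES cells differ in strain and source, which cannot be told apart here. Where KO embryos are set beside KD ESC, knockout and knockdown differ as well. The effect in KO embryos minus the effect in KD ESC was 3.11 ± 0.77 for Obox6 on the log2 scale and missed the threshold (adjusted p = 0.0658). It passed without control embryo 2 (3.90, adjusted p = 0.00778, over all alternatives 0.00778 to 0.226). The other 4 members were at 0 in all ES cell libraries, so their values in this difference are the embryo changes given above and compare nothing with ES cells. By limma 2.69% of 14447 genes were called in this difference (2.06% higher, 0.623% lower) and 0 of the 5 members were. Obox6 had an unadjusted p of 0.00246, 2650 of all genes had one under 0.05, and no other tool was run.

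Likeness of pattern was measured as Pearson's r of log2(FPKM + 1) over the 12 libraries, which span embryos and ES cells, as a description. Most like Obox1 were C87414 (r = 0.995), Bcl2l10 (0.993), a BCL2-family gene, and Bmp15 (0.992), an oocyte growth factor. Most like Obox2 were Btg4 (r = 0.995), an adaptor for the decay of maternal mRNA, Scoc (0.993) and C87414 (0.991). Most like Obox5 were Oog1 (r = 0.998), an oocyte transcript, Scoc (0.996) and C87414 (0.995). Obox3 was most like Ptp4a1, a phosphatase gene (r = 0.989), Zfp948 (0.985) and Gdap1 (0.983). Obox6 had other companions: Lrr1 (r = 0.994), a substrate receptor of a CUL2 ligase, Pcgf5 (0.994), a Polycomb subunit, and Agmat (0.994), the agmatinase gene. Over the 8 embryo libraries alone Obox6 was most like Ncl (r = 0.997), which encodes nucleolin, Rps6 (0.997), a ribosomal protein gene, and Caskin1 (0.995). Ncl averaged 291 FPKM in KO arrest, 133 in KO embryos and 36.9 in control embryos. In the same 8 libraries Obox5 was most like Oog1 (r = 0.994), Zscan4d (0.99) and Tcl1b3 (0.988).

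Among the members, over the 8 embryo libraries, r was 0.956 between Obox1 and Obox5, 0.914 between Obox1 and Obox2 and 0.906 between Obox2 and Obox5. Obox3 was less like these 3, with r from 0.68 to 0.80. Obox6 ran against all 4, with r from -0.887 to -0.793. The 8 libraries fall into 3 groups, and Obox1 and Obox2 share sequence, so these values describe the group pattern shown above.

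The change of sign within the cluster was mapped against position. Within 500 kb of the outermost members the files list 19 other symbols, all on the far side of Obox6 from Obox2, of which 13 were tested in the embryo fits. In KO embryos against control embryos 3 of these 13 were higher and 0 lower, and in KO arrest against control embryos 5 were higher and 0 lower. Over all genes 4.86% were higher and 1.5% lower in the first of these comparisons, and 16.4% and 8.87% in the second. The nearest of those called, Crxos1, a homeobox gene that starts 42.9 kb beyond the end of Obox6, had the same order of groups as Obox6. It was 1244, 1538 and 3180.3 FPKM in KO arrest, 1148, 831 and 1120.3 FPKM in KO embryos, and 208 and 202 FPKM in control embryos. All knockout libraries lay above both controls. Crxos1 changed by a log2 fold change of 2.31 ± 0.41 in KO embryos (adjusted p = 0.0145) and of 3.15 ± 0.41 in KO arrest (adjusted p = 0.000685), each against control embryos. The change of 0.84 ± 0.37 between KO arrest and KO embryos missed the threshold (adjusted p = 0.18). Median-of-ratios scaling gave 1.62 in KO embryos and lost the call, which was also lost with no filter, library weights, the replicate block or all 12 libraries in the fit (adjusted p up to 0.0745 over all alternatives), and without KO embryo 1 (adjusted p = 0.0676) or KO embryo 3 (adjusted p = 0.0624). The call in KO arrest held under every alternative. Crx, which lies between Obox6 and Crxos1, was at 3.87 FPKM or less in every library and was not called. Gltscr2, a ribosome biogenesis gene, and Napa, a vesicle fusion gene, were the other 2 called in KO embryos, with log2 fold changes of 1.99 ± 0.48 (adjusted p = 0.0383) and 2.52 ± 0.60 (adjusted p = 0.0377). Both of these calls were lost without any 1 of KO arrest 2, KO arrest 3 or the 3 KO embryo libraries, Gltscr2 also without control embryo 2, and Napa also without KO arrest 1 or control embryo 1. Sepw1, which encodes a selenoprotein and is the next gene beyond Crxos1, was 201, 229 and 450 FPKM in KO arrest, 39.7, 35.3 and 66.8 FPKM in KO embryos, and 106 and 365 FPKM in control embryos. KO embryos thus lay below both other groups, with a log2 fold change of -2.09 ± 0.57 against control embryos that missed the threshold (adjusted p = 0.0558). Between KO arrest and KO embryos 2 of the 13 were higher (4.93% of all genes), Sepw1 and Bbc3, which encodes the cell death factor PUMA, and 0 were lower. Bbc3 was lost without any 1 of these 6 libraries, and Sepw1 without KO arrest 3, KO embryo 1 or KO embryo 2.

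**Figure D5:**
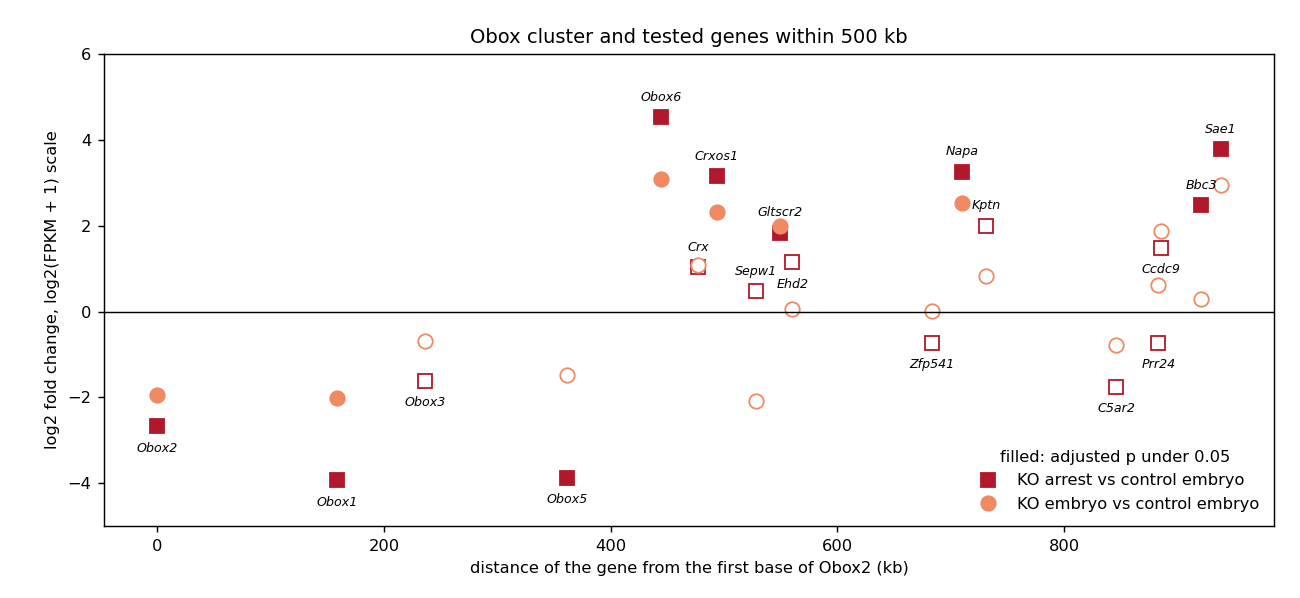
Difference in mean log2(FPKM + 1), as a log2 fold change, against the distance (kb) of each gene's first base from the first base of Obox2, for the 5 Obox members and the tested genes within 500 kb; filled symbols have an adjusted p under 0.05. Obox2, Obox1, Obox3 and Obox5 lie below 0, and Obox6 and Crxos1, next to each other with only Crx between them in these files, lie above 0.

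Of 42 other homeobox genes of the oocyte and early embryo, 38 were present and 23 were tested in the embryo fits. In KO embryos against control embryos 1 was higher (Crxos1) and 1 lower (Hesx1, a paired-like repressor). Against the same controls, in KO arrest 2 were higher (Crxos1 and Nanog, the pluripotency factor) and 3 lower: Hesx1, Lhx8 and Nobox, the last 2 being oocyte regulators. Nobox averaged 0.223 ± 0.386 FPKM in KO arrest (n = 3) and 7.80 ± 4.51 FPKM in control embryos (SD, n = 2). Between KO arrest and KO embryos 1 was higher (Nanog) and 1 lower (Lhx8). In all 2, 5 and 2 of the 23 were called in these comparisons, where 6.36%, 25.2% and 8.58% of all genes were. These calls were mostly fragile. Hesx1 in KO embryos was lost without any 1 library but KO arrest 1, and in KO arrest without either control embryo. Nanog against control embryos was lost without KO arrest 1, KO arrest 3, KO embryo 1, KO embryo 3 or control embryo 1, and against KO embryos without KO arrest 3, KO embryo 1 or KO embryo 3. Nobox was lost without KO arrest 1, KO arrest 2 or control embryo 2. Lhx8 against control embryos held with each library left out, and against KO embryos was lost without any 1 of these 6 libraries. The list's median log2 fold change was 0.19, 0.16 and -0.05 in these comparisons, beside 0.31, 0.45 and 0.07 over all genes.

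Maternal oocyte transcripts are the class to which Obox1, Obox2 and Obox5 belong. Of 63 tested, 9 fell in KO embryos against control embryos and 0 rose, with a median log2 fold change of -1.36, against 0.31 over all genes. Against the same controls, in KO arrest 32 fell and 2 rose (Khdc3 and Dppa3), with a median of -2.50 (0.45 over all genes), and between KO arrest and KO embryos 16 fell and 0 rose, with a median of -1.35 (0.07 over all genes). Over all genes 1.5%, 8.87% and 3.65% were called lower in these comparisons. With 1 library left out, the count called was 0 to 10 in KO embryos (at most 1 when any KO embryo library was dropped, 2 when KO arrest 3 was and 3 when KO arrest 2 was). It was 26 to 38 in KO arrest against control embryos, and 7 to 27 against KO embryos (7 without KO arrest 2 or KO embryo 1, 27 without control embryo 1). Blood cell and fibroblast markers, given above, were also lowest in KO arrest, and their part in these counts was not tested. Omt2b, an oocyte transcript with a near-identical copy, averaged 530 ± 110 FPKM in KO arrest, 9163 ± 1806 in KO embryos (n = 3 each) and 23905 ± 4477 in control embryos (SD, n = 2). Its call in KO embryos was lost without any 1 library but KO arrest 1, and its calls in KO arrest held throughout. The maternal list summed to 24262 to 31802 FPKM in KO arrest, 21510 to 35184 in KO embryos and 47968 to 82252 in control embryos. Dppa3 alone gave 21963, 30499 and 25965 FPKM in KO arrest, most of the sum there. It gave 12074, 7278 and 14555 FPKM in KO embryos, and 4949 and 12398 FPKM in control embryos.

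Factors of zygotic genome activation, the process in which OBOX proteins act, were called in both directions, beside 4.86% of all genes higher and 1.5% lower in KO embryos and 16.4% and 8.87% in KO arrest. Of 40 tested, 2 rose in KO embryos against control embryos (Dppa2 and Nfyb) and 5 fell (Zfp281 and the near-identical Zscan4a, Zscan4c, Zscan4e and Zscan4f). Against the same controls, in KO arrest 9 rose and 9 fell, and in KO arrest against KO embryos 1 rose (Dppa2) and 2 fell (Zscan4a and Yap1). Between KO arrest and KO embryos 4.93% of all genes were called higher and 3.65% lower. Dppa2, an activator of genes of the early cleavage embryo, averaged 695 ± 84.5 FPKM in KO arrest, 248 ± 38.0 in KO embryos (n = 3 each) and 47.8 ± 0.513 in control embryos (SD, n = 2), the same order as Obox6. Its calls against control embryos held with each library left out, and that of KO arrest against KO embryos was lost without KO arrest 2, KO arrest 3, KO embryo 1 or KO embryo 2. Genes of the first burst of genome activation, a list that holds the Zscan4 genes too, numbered 31 tested. Of these 1 rose and 10 fell in KO embryos against control embryos, 7 rose and 8 fell in KO arrest against control embryos, and 10 rose and 1 fell in KO arrest against KO embryos. With 1 library left out, the count called in KO embryos was 1 to 10 for these genes (1 without any 1 KO embryo library) and 3 to 7 for the factors above (3 without any 1 KO embryo library). Between KO arrest and KO embryos the counts were 3 to 16 (3 without KO arrest 2, KO embryo 1 or KO embryo 2) and 0 to 8 (0 without KO arrest 2, KO arrest 3, KO embryo 1 or KO embryo 2). Several genes of the first burst, such as Gm2016, Gm5662 and Gm8300, are near-identical copies whose values cannot be separated. The list's median log2 fold changes were -1.20, 0.36 and 1.00 in the 3 comparisons, beside 0.31, 0.45 and 0.07 over all genes.

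Of 5 ES cell identity markers 0 rose and 0 fell, 1 rose (Nanog) and 1 fell (Sox2), and 1 rose (Nanog), in the order KO embryos and KO arrest against control embryos and KO arrest against KO embryos. The remaining lists were set beside the Obox genes in the same 3 comparisons, in which 4.86%, 16.4% and 4.93% of all genes were called higher and 1.5%, 8.87% and 3.65% lower. Of 20 pluripotency genes 1 rose and 0 fell, 4 rose and 4 fell, and 2 rose and 0 fell. The pluripotency and maternal lists both hold Dppa3 and Tcl1. Of 10 tested trophectoderm and primitive endoderm genes 1, 3 and 1 rose and 0 fell. Of 19 CUL4-DDB1 and KAP1 genes, the pathway of DCAF11, 0 rose and 2 fell, 2 rose and 5 fell, and 0 rose and 0 fell. The 2 that fell in KO embryos were Zscan4c and Zscan4f, which are not ligase or KAP1 subunits. In KO arrest against control embryos Cbx5 and Rbx1 rose, and Zscan4c, Zscan4f, Zscan4d, Zfp57 and Cul4b fell. Of these, Rbx1, which rose, and Cul4b, which fell, encode ligase subunits. Of 9 tested fibroblast markers 0 rose in any and 0, 4 and 7 fell, of 7 blood cell markers 0 rose and 0, 4 and 5 fell, and of 3 cumulus markers 0 rose and 1, 1 and 0 fell.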

How the data were processed

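Per the labels' protocols, the 12 libraries were made from polyadenylated RNA by Smart-seq2. The authors deposited FPKM, TPM and coverage per gene. FPKM gave all results, TPM an alternative scaling, and coverage the relative depth. No read counts were given, so no counting interval was computed. The submitters' processing notes list STAR (0.6.0), StringTie, DESeq2 and build mm9. The sources used here do not give the annotation, the strand or the treatment of multiply matching reads.

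Rows with no gene name (0.549% to 1.19% of FPKM) were dropped, and loci of 1 symbol were summed. Separate limma 3.58.1 fits (R 4.3.3, variance trend) on log2(FPKM + 1), a scale that understates changes of low genes, took the 8 embryo libraries (5 residual degrees of freedom), the 4 ES cell libraries (2) and all 12 (7) for comparisons across them. A gene needed 1 FPKM in 2 libraries, and p-values were adjusted over every gene tested. The fit was tested on simulated data. Biopython 1.88 aligned the sequences. Tables and plots used pandas 2.3.3, numpy 2.4.6, Python 3.11.15 and matplotlib 3.10.9.

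The members and lists were chosen with earlier results of these data known. Named genes are the members, Dcaf11, up to 4 called genes of a list or the neighbourhood with the smallest p, and the 3 symbols most like a member. Other names beside small counts were chosen after their values were seen. Alternatives changed the pseudocount (0.1), the filter (none, or 5 FPKM), the scaling (TPM, median-of-ratios, quantile), library weights, a replicate block and the libraries in the fit, and left out each library.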

Additional observations from a re-analysis of the deposited data

Results flagged for a closer look

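For Crxos1, the homeobox gene beyond Obox6, the change with knockout in embryos differed from the change with knockdown in ES cells in the main fit. The call was lost under several alternatives, given below. It came from limma's test of the difference itself (KO embryo minus control embryo, less KD ESC minus control ESC). Strain, source and the mode of loss (knockout or knockdown) differ together in this contrast and cannot be told apart. The difference was 5.38 ± 1.02 (SE) on the log2 scale (adjusted p = 0.0264). Crxos1 was 1148, 831 and 1120.3 FPKM in KO embryos and 208 and 202 FPKM in control embryos, but 14.5 and 1.29 FPKM in KD ESC and 36.8 and 64.5 FPKM in control ESC. The log2 fold change in ES cells alone was -3.06 ± 0.97 and missed the threshold (adjusted p = 0.128). Over the alternatives the difference stayed above 0 and ran from 3.99 to 6.76, both ends with a library left out. It missed the threshold with median-of-ratios (adjusted p = 0.0599), library weights (0.214) or the replicate block (0.0766), and without KO embryo 1 (0.0642), KO embryo 3 (0.0618), control ESC 1 (0.0937) or control ESC 2 (0.141). Only genes that passed the filter both in the embryo fit and in the ES cell fit were read this way. Among the neighbours and homeobox genes, Snord23 and Rhox6 were also called in this difference. They did not pass the filter in the embryo fit and were left out.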

How the results depend on the processing

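Results for the 5 members were recomputed under the alternatives. Of 487 recomputed values 432 kept direction and side of the threshold, 39 lost a call, 13 gained one and 3 changed sign. The 432 include Obox1, Obox2, Obox3 and Obox5 in control embryos against control ESC, an outcome fixed by their zeros in ES cells. The 3 sign changes were all of Obox6 in KD ESC against control ESC, a difference near 0 that was never called: 0.024 with median-of-ratios, 0.079 with quantile scaling, and -0.63 (without KD ESC 1) to 0.56 (without KD ESC 2) with a library left out (log2 fold change).

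The 3 members called in KO embryos against control embryos became 1 with a pseudocount of 0.1, 1 without a filter, 1 with library weights and 0 with the replicate block. With a library left out they fell to as few as 0. TPM lost Obox1 and the 2 groups alone lost Obox2, while median-of-ratios added Obox5. The 4 called in KO arrest against control embryos stayed 4 or 5 with a library left out. The 2 called in KO arrest against KO embryos became 0 without a filter, 1 with the replicate block and as few as 0 with a library left out. Library weights and the 2 groups alone each added Obox6 to them. For the difference between embryos and ES cells the count of 0 became 0 to 1 with a library left out (Obox6, without control embryo 2). It became 1 with median-of-ratios through Obox2, which is at 0 in all ES cell libraries, so that this value is the embryo change alone. The counts in KD ESC against control ESC (0) and in control embryos against control ESC (5) held throughout. In the second count 4 members were listed at 0 in all ES cell libraries, so for these the outcome was fixed beforehand.

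Over all genes, the 750 called in KO embryos became 269 without a filter, 82 with library weights, 76 with the replicate block, 1709 with all 12 libraries in the fit, 228 with the 2 groups alone, and 87 (without KO embryo 3) to 1817 (without control embryo 2) with a library left out. The 2976 called in KO arrest against control embryos became 1505 with library weights, 1965 with the replicate block, and 1983 to 3636 with a library left out. The 1012 called in KO arrest against KO embryos became 456 without a filter, 2555 with library weights, 550 with the replicate block, 2081 with all 12 libraries, 2030 with the 2 groups alone, and 285 to 2023 with a library left out. The 764 called in KD ESC became 313 without a filter, 431 with TPM, 26 with the replicate block, 93 with all 12 libraries, and 13 to 686 with a library left out. The 388 called for the difference became 257 with a pseudocount of 0.1, 127 with the replicate block, and 39 to 2020 with a library left out. The 7721 called in control embryos against control ESC ranged from 5682 to 8651 with a library left out. Settings not named also moved these counts, but by a smaller ratio. The cause of these shifts was not tested.

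Samples of different groups share only a replicate number, and the labels do not say whether they were paired. Deviations of same-numbered samples from their group means correlated at -0.101 to 0.025, which cannot settle this. The replicate block therefore rests on the numbers alone. A group reduced to 1 library borrows its spread from the others in the fit. The 2 control embryos, the reads shared by Obox1 and Obox2, and the unknown read counts limit the precision. In mean FPKM, Obox5 was 16.3-fold lower in KO arrest and 3.30-fold lower in KO embryos than in control embryos, 7.43-fold and 1.51-fold without control embryo 2, and 25.1-fold and 5.10-fold without control embryo 1.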
